A study of Mus musculus with 4 samples.

Results

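Semaphorins are guidance proteins that steer growing axons, vessels and epithelial cells, often by repelling them. Class 3 semaphorins are secreted and act on a receptor pair: a neuropilin, which binds the ligand, and a plexin of the A group, which signals inside the cell through its GTPase-activating domain. Plexins of the B group mainly answer to membrane-bound class 4 semaphorins, Plxnd1 can bind Sema3e without a neuropilin, and both neuropilins are also coreceptors for vascular endothelial growth factor. In the kidney these signals act in podocytes, the epithelial cells of the glomerular filter, in vessels and in the branching ureteric bud. The set described here is 10 of 21883 protein-coding genes, chosen by name for their role in this pathway: the ligand genes Sema3a, Sema3f and Sema3g, and the receptor genes Plxna1, Plxna2, Plxnb1, Plxnb2, Plxnd1, Nrp1 and Nrp2. The set was picked with results on these same peak positions, significance values and error rates known, so its peaks are a description and were not tested.

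WT1, a transcription factor with zinc fingers, acts in podocytes and nephron progenitors. Its binding was mapped by chromatin immunoprecipitation and sequencing in dissected kidneys of wildtype mouse embryos at E18.5, whose mixed genetic background came from C57Bl6 and B6DBA/F1 mice. In all, 2 samples were precipitated with the WT1 antibody C-19 and 2 with IgG as the negative control. The IgG samples were not analysed here. The labels do not say how many embryos went into a sample.

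For each gene, every deposited peak with its midpoint in the gene or within 50 kb of it was taken (mm10). Each replicate has its own peak list, with 1 significance value per peak, read as a p-value or q-value and smaller for stronger peaks. A further table holds the regions found in both replicates, 17234 in all. Its value per region is read as an irreproducible discovery rate (IDR), an error rate that is low where both replicates rank a site highly. A region with an IDR of 0.05 or lower is called reproducible, which 25.6% of the regions were. The 10 genes held 50 of the regions and 17 of the reproducible ones. Depth is unknown, because the files give no reads, and whole kidneys cannot tell more cells with WT1 at a site apart from more WT1 per cell.

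The start sites of 8 of the 10 genes have a sequence in the RefSeq table of GRCm38.p6, the assembly of mm10, which gives 250 bases before and 50 after each start site. The only one of their 9 windows that a reproducible region overlapped was that of Plxna2, against 1.91% of all 32851 windows. The stretch before the annotated gene is shown for Plxna2, as the occupied promoter, and for Sema3g and Nrp2, whose strong regions lie elsewhere. All are read 5′ to 3′ on the plus strand. Capitals mark every match, on either strand, to the words GCGTGGGCG, GCGTGGGAG, GGGAGG as well as GGGTGG and also TGGGAG. These are G-rich words of the kind that WT1 and EGR zinc fingers bind. GCGTGGGAG contains TGGGAG, and GGGAGG and TGGGAG can overlap.
Plxna2 (chr1:194619579-194619790): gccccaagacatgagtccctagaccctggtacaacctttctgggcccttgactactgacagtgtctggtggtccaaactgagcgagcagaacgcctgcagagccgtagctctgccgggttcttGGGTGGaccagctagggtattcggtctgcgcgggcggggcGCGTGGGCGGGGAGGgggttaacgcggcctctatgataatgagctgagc
Sema3g (chr14:31217623-31217872): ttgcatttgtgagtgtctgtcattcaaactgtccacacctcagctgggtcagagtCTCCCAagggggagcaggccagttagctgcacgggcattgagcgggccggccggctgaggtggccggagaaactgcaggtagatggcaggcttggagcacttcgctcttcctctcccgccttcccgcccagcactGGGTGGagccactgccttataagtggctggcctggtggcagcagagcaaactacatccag
Nrp2 (chr1:62703067-62703316): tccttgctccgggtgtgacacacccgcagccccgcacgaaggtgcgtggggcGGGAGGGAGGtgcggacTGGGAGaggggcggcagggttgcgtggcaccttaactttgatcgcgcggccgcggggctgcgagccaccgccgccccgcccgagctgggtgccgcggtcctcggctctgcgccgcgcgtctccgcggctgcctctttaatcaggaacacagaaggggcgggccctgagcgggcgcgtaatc

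The long run of capitals in Plxna2 is GCGTGGGCG at chr1:194619742-194619750, whose first letter lies 87 bases before the start site, followed directly by GGGAGG. GCGTGGGCG was present in 0.612% of all promoter windows and in 1 of the 9 windows of these genes. GCGTGGGAG was in 0.472% of all windows and in 0 of the 9. The shorter words are common: GGGAGG was in 42.4% of all windows, GGGTGG in 31.5% and TGGGAG in 29.1%, and in 5, 6 and 4 of the 9. A match is a string of letters and not evidence of binding.

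Of the 10 genes, 8 had at least 1 reproducible region, against 26.1% of all protein-coding genes. They were Sema3f with 5, Sema3g, Plxna1, Plxna2, Plxnd1 and Nrp2 with 2 each, and Plxnb1 and Plxnb2 with 1 each. Sema3a and Nrp1 had 0. Thus 6 of the 10 had 2 or more, against 8.37% of all genes. This count moved with 1 library: from the strongest peaks of replicate 2 alone, as many as there are reproducible regions, it was 3 of 10 (Sema3f, Sema3g and Nrp2), against 9.28% of all genes. From replicate 1 alone it was 6, against 7.47%, with Plxnb1 in place of Plxnd1. At an IDR of 0.01 or lower it was again 3 of 10, the same genes as from replicate 2 alone, against 4.94%. At least 1 reproducible region inside the gene itself was present at 6 of 10, against 7.94%. Any region found in both replicates was present at 9 of 10, against 57%, and all 10 had peaks of replicate 1 and of replicate 2, against 84.4% and 83.3%. The genes of this set are longer than most, with a median of 43.4 kb against 17.2 kb. For at least 1 reproducible region within 50 kb, the background share was 29.9% among genes within their length range, from 12.5 to 478.7 kb. Among genes of 100 kb or longer it was 42%. No such share was computed for 2 or more regions or for regions inside the gene. The median gene of the set had 0.861 reproducible regions per 100 kb of gene and window, and the median of all genes was 0. Of the 17 regions, 9 lay inside the gene they were counted for. For 5 of the 17 another protein-coding gene was nearer, and only 4 had no other protein-coding gene within 50 kb.

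**Figure D1:**
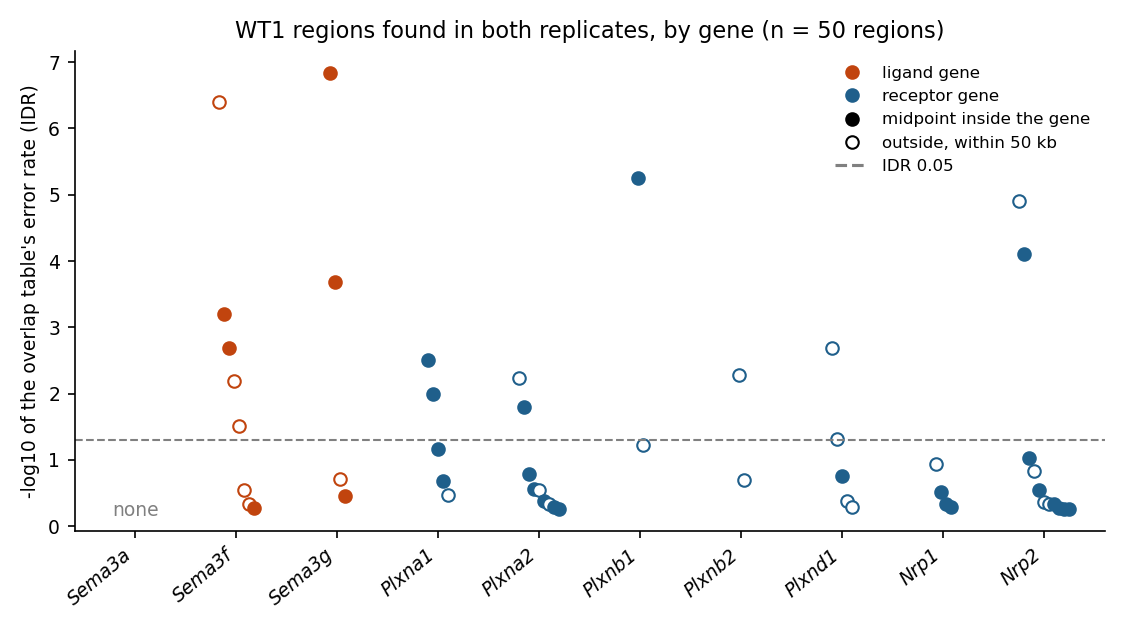
Each point is 1 of the 50 regions found in both WT1 replicates at the 10 genes. The vertical axis is -log10 of the IDR, so higher points are more reproducible, filled points lie inside the gene and open points within 50 kb of it. Sema3g and Sema3f reach the highest values, Nrp1 stays below the dashed line at an IDR of 0.05, and Sema3a has no region.

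Among the ligands, Sema3g carried the strongest site of the whole set. Sema3g encodes a secreted semaphorin found in podocytes and vessels, and its gene spans 12.5 kb (chr14:31217873-31230352). Its main region, chr14:31226622-31227720, had an IDR of 1.43e-07 and ranked 17 among the 17234 regions. The significance value was 8.75e-63 in replicate 1 and was listed at 0 in replicate 2, as for 45 peaks of that list. The region lay inside the gene, 9.3 kb past the start site and 3.18 kb from the far end. At 1099 bp it was wide, and only 33 regions of the table, itself included, were at least as wide. The regions of the table had a median width of 224 bp. Another reproducible region followed at chr14:31229646-31230026, 0.516 kb from the far end, with an IDR of 2.09e-04 and values of 2.26e-09 and 8.45e-15 in replicates 1 and 2. Between them lay a weak region with an IDR of 0.352 and values of 0.0314 and 0.0297. No peak of either replicate overlapped the promoter window printed above.

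Sema3f encodes a secreted semaphorin that acts mainly through Nrp2. It had more reproducible regions than the other members, and 0.398% of all genes had 5 or more. The gene spans 29.0 kb (chr9:107681499-107710475). Inside it lay chr9:107698810-107699125 (IDR 6.34e-04, values 1.16e-07 and 6.92e-14 in replicates 1 and 2) and chr9:107707553-107708251 (IDR 0.00205, values 3.2e-07 and 4.92e-20). The other 3 lay above the higher-coordinate end. The strongest of the 5 was chr9:107735701-107736506, 25.6 kb from Sema3f, with an IDR of 4.04e-07, rank 87 of 17234, and values of 1.2e-34 and 7.1e-72. It was nearer to Rbm5, a splicing factor gene 4.39 kb away, so its link to Sema3f rests on the 50 kb rule. Next to it was chr9:107735287-107735626 (IDR 0.0309), 5.04 kb from Rbm5. The region at chr9:107723717-107724142 (IDR 0.00637) lay 13.5 kb from Sema3f and had no nearer protein-coding gene. With regions inside the gene only, Sema3f kept 2 of its 5.

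The region that came closest to the 50 kb limit from outside belonged to the same locus. It lay 50.8 kb from Sema3f on the lower side, at chr9:107630234-107631205, with an IDR of 1.16e-05. It was 21.5 kb from Sema3b, the neighbouring class 3 gene. Just inside the limit was a region 48.1 kb from Plxnd1 with an IDR of 0.420.

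Sema3a, the founding secreted semaphorin, stood apart from the other ligands. Its gene is the longest of the set at 478.7 kb (chr5:13124822-13603485), and with 50 kb on either side it offered 578.7 kb of sequence. Replicate 1 had 7 peaks there and replicate 2 had 5, and 0 of them overlapped between the replicates. The lowest significance values were 0.00262 in replicate 1 and 0.0197 in replicate 2. Of the 245 genes at least as long, 84.9% had a region found in both replicates. In peaks per 100 kb, 34.2% of all genes lay below Sema3a in replicate 1 and 22.4% in replicate 2.

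**Figure D2:**
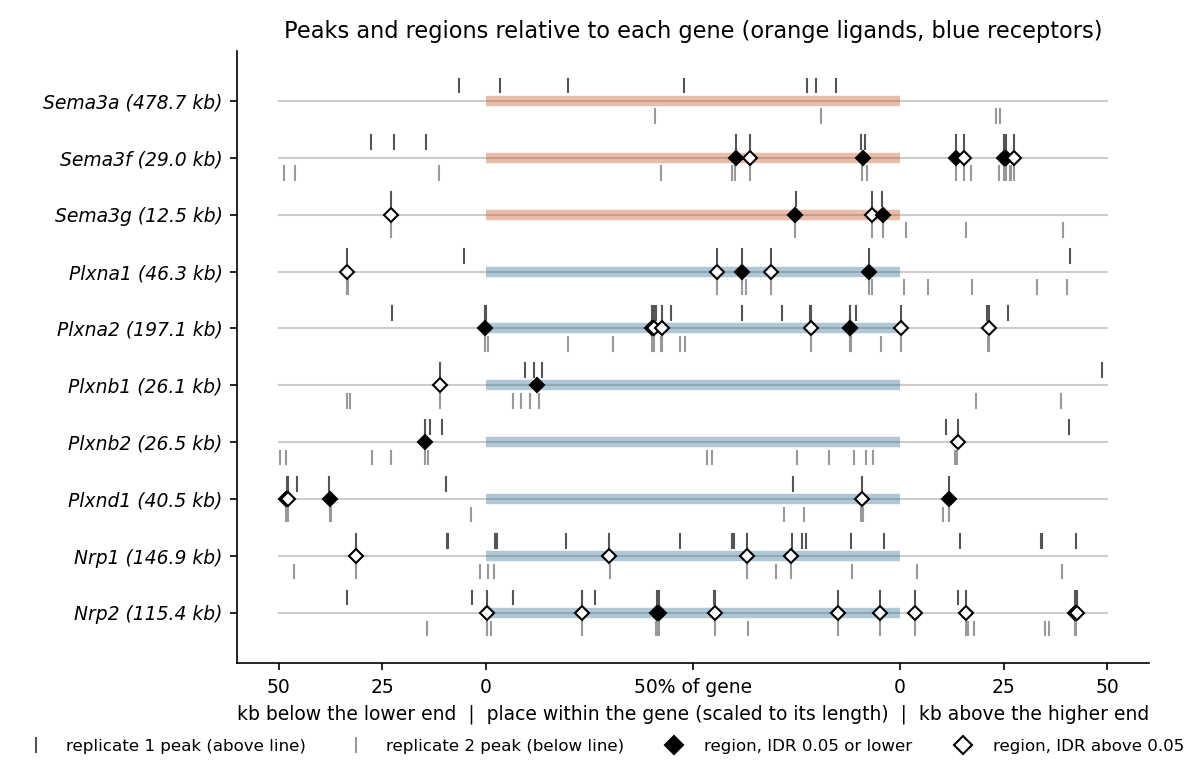
Each row is 1 gene scaled to its own length, with 50 kb on either side. Ticks above and below the line are peaks of replicates 1 and 2, filled diamonds are reproducible regions and open diamonds are regions with an IDR above 0.05. The 2 filled diamonds of Sema3g lie in the last part of the gene, 3 of the 5 of Sema3f lie outside it, and the row of Sema3a has ticks but no diamond.

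Among the plexins of the set, the signalling subunits, all 5 had a reproducible region within 50 kb, against 26.1% of all genes. For Plxnb2 and Plxnd1 it lay only outside the gene. Plxnb1 had the strongest. It encodes the receptor of Sema4d, and its gene spans 26.1 kb (chr9:109093849-109119915). Its region at chr9:109096546-109097642 had an IDR of 5.56e-06, rank 510, and lay inside the gene, 1.66 kb past the start site in the RefSeq table. The significance value was 8.79e-33 in replicate 1 and listed at 0 in replicate 2. It was 1097 bp wide and covered a pair of peaks in each replicate. Its other region, 11.1 kb outside Plxnb1 and inside Ccdc51, had an IDR of 0.0600 and was the closest of the 50 to the threshold from above.

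Plxna2 was the only gene, of the 8 with a promoter window, to have a reproducible region overlapping that window. It encodes a receptor of class 6 semaphorins and, with neuropilins, of class 3 semaphorins, and its gene spans 197.1 kb (chr1:194619791-194816869). The region chr1:194619424-194619989 covered the whole promoter window, including GCGTGGGCG, with its midpoint 0.122 kb before the start site. Its IDR was 0.00587. In replicate 2 it was a single peak with a value of 8.58e-18. In replicate 1 it was cut into a peak ending at 194619834, with a value of 1.42e-06, and a peak starting at 194619835, with a value of 0.0326. The letters around that cut are AGCT, the recognition site of AluI, 1 of the enzymes that the labels' protocols name for the digestion of the recovered DNA. A further reproducible region lay deep in the gene, 173 kb past the start site (chr1:194793003-194793352, IDR 0.0158, values 3.19e-06 and 2.88e-06). The other 7 regions of Plxna2 had IDRs from 0.163 to 0.550.

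Plxna1 encodes a coreceptor that pairs with neuropilins, and its gene spans 46.3 kb (chr6:89316313-89362613). Its reproducible regions both lay inside it. The first, chr6:89359034-89359191, had an IDR of 0.00306 and values of 8.99e-06 and 5.2e-13 in replicates 1 and 2. The second, chr6:89344793-89345020, had an IDR of 0.0103 and values of 1.18e-06 and 7.15e-07. Both were narrow, at 158 and 228 bp, against a median of 426 bp for the 17 reproducible regions.

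For Plxnb2 and Plxnd1 the reproducible regions lay outside the gene. Plxnb2 encodes a receptor of class 4 semaphorins needed for growth of the ureteric tree. Its only such region, chr15:89140745-89140972 (IDR 0.00524, values 1.15e-05 and 1.64e-08), lay 14.7 kb beyond its lower-coordinate end and inside Mapk12, a p38 kinase gene. Inside Plxnb2 replicate 1 had 0 peaks and replicate 2 had 7, with values from 0.00886 to 0.0376. Plxnd1 encodes the Sema3e receptor of endothelial cells. It had a region at chr6:116006786-116007235 (IDR 0.00208, values 3.94e-05 and 5.22e-16), 12.0 kb before its start site and about as far from Tmcc1, which was 11.6 kb away. Its other one, chr6:115916996-115917190, lay inside Ift122 and 37.7 kb from Plxnd1. Its IDR of 0.0481 was the closest of the 17 to the threshold. When each region counted only for the nearest gene of any kind, Plxnb2 and Plxnd1 had 0.

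The neuropilins, the ligand-binding subunits, differed from each other. Nrp2, the main partner of Sema3f, held 11 of the 50 regions, more than any other gene of the set. Its strongest was chr1:62860576-62861122, 42.2 kb past the higher-coordinate end, with an IDR of 1.23e-05 and values of 9.43e-11 and 1.83e-23. Inside the gene lay chr1:62751224-62751716, 48.2 kb past the start site, with an IDR of 7.80e-05 and values of 5.32e-13 and 1.4e-19. No other protein-coding gene lay within 50 kb of either. The remaining 9 had IDRs from 0.0923 to 0.550, and 1 of them began 0.229 kb past the start site (chr1:62703546-62703687, IDR 0.539).

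Nrp1, the main partner of Sema3a, had 20 peaks of replicate 1 and 12 of replicate 2, 4 regions and 0 reproducible ones. Its gene spans 146.9 kb (chr8:128358591-128505476). The region with the lowest IDR, 0.115, lay 31.3 kb outside it (chr8:128327182-128327417, values 0.00824 and 0.00886). Single replicates gave stronger peaks that the other ranked low or did not have. In replicate 1 a peak at chr8:128402259-128402493 had a value of 4.03e-06, and its partner in replicate 2 had 0.0197. In replicate 2 a peak at chr8:128359203-128359462, 0.26 kb past the start site, had a value of 7.87e-05, and replicate 1 had none there. From replicate 1 alone Nrp1 would have had 1 strong peak, and from replicate 2 alone 0.

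**Figure D3:**
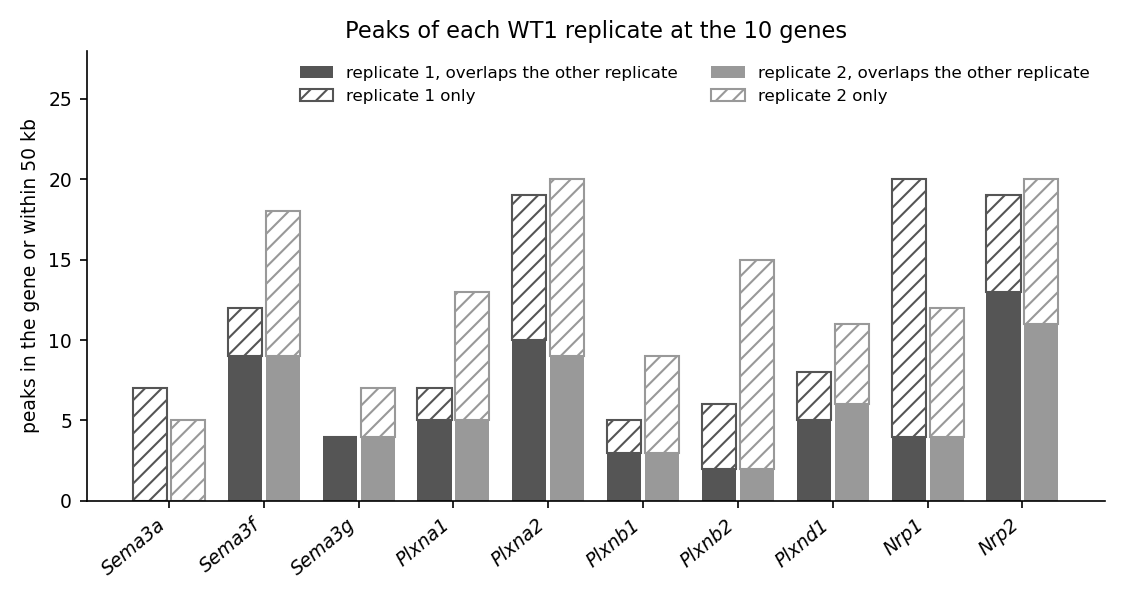
Bars give the number of peaks of each WT1 replicate in a gene or within 50 kb, with the solid part overlapping a peak of the other replicate by at least 1 bp. All 4 replicate 1 peaks of Sema3g are shared and none of the 7 of Sema3a, and at Nrp1 4 of 20 in replicate 1 and 4 of 12 in replicate 2 are.

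Set side by side, 2 of 3 ligand genes and 6 of 7 receptor genes had a reproducible region, against 26.1% of all genes. The ligands had 12 regions, of which 7 were reproducible (58.3%), and the receptors 38, of which 10 were (26.3%), against 25.6% of all regions. The share for the receptors was thus near the background, and that of the ligands came from Sema3f and Sema3g alone. Of the 12 ligand regions, 0 had only the member gene within 50 kb, against 25 of the 38 receptor regions. For reproducible regions these counts were 0 of 7 and 4 of 10. The 25 were all the regions of Nrp2, Plxna2 and Nrp1 and 1 of Plxna1, and the 4 were those of Plxna2 and Nrp2. Plxnb1, Plxnb2 and Plxnd1 had none, like the ligands, so the contrast is one of a few loci. The same share over all regions was not computed. The 2 of the 17 regions with ranks up to 100 were counted for ligand genes. That of Sema3g lay inside the gene, while that of Sema3f lay 25.6 kb outside it and nearer to Rbm5. Per 100 kb of summed gene and window, the ligands had 0.854 reproducible regions and the receptors 0.770, against 0.265 over all genes. For all regions the order was the other way, with 1.46 at ligands and 2.93 at receptors, against 0.933 over all genes. Sema3a supplied 578.7 of the 820.1 kb of ligand sequence. Taken as the median gene of each group, the order for all regions turned, with 3.56 per 100 kb at ligands and 3.03 at receptors, against 0.683 over all genes. For reproducible regions the medians were 1.78 and 0.793. With 3 genes against 7, and with genes chosen knowing the results, none of these differences was tested.

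The members can be ordered by the density of reproducible regions. Sema3f, at 3.88 per 100 kb, was above 99.8% of all protein-coding genes and Sema3g, at 1.78, above 96.4%. Plxnd1 and Plxna1 followed at 1.42 and 1.37, above 94.4% and 94.2%. Nrp2 at 0.929, Plxnb1 at 0.793, Plxnb2 at 0.791 and Plxna2 at 0.673 were above 88.9%, 83.0%, 82.9% and 80.0%. Each rests on 1 to 5 regions. When a region counted only for the nearest gene of any kind, Sema3f kept 2 of its 5 and Nrp2 1 of its 2. Plxnd1 and Plxnb2 then had 0, while Sema3g, Plxna1, Plxna2 and Plxnb1 kept theirs. From Sema3g down to Plxna2, 1 region fewer at the higher gene would turn the order of any neighbouring pair. For all regions Nrp2 came next after Sema3f, at 5.11 against 6.20 per 100 kb, and Nrp1 at 1.62 was above 77.1% of genes although it had no reproducible region.

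**Figure D4:**
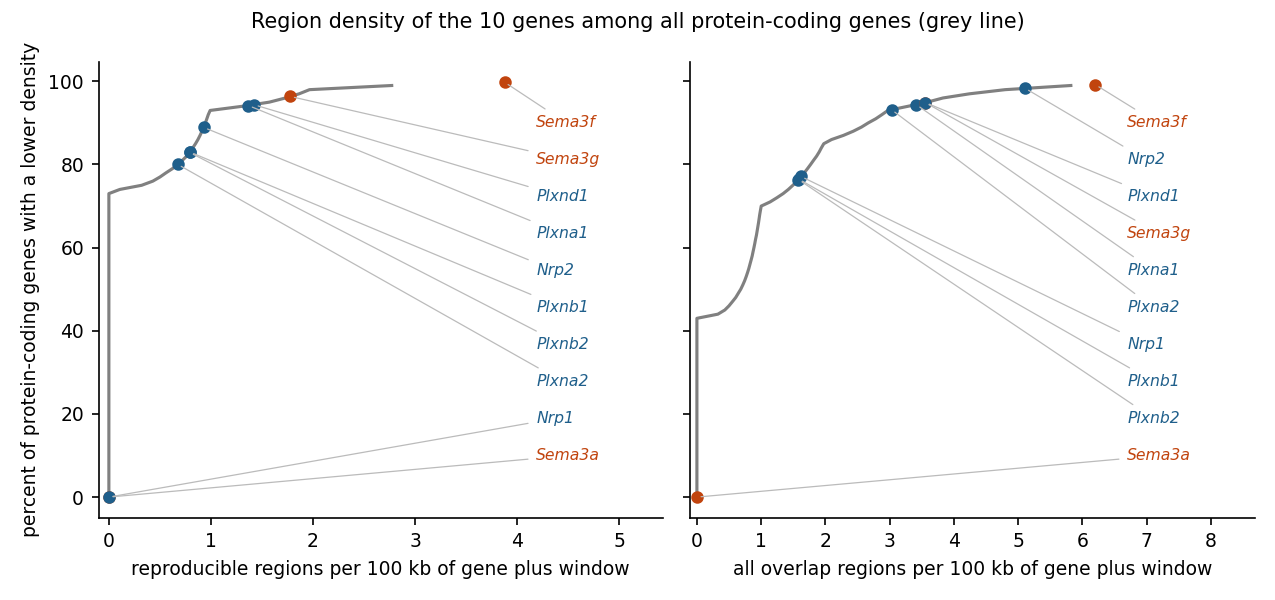
The grey line is the cumulative share of protein-coding genes by regions per 100 kb of gene and 50 kb on either side, drawn up to the 99th percentile, for reproducible regions on the left and all regions on the right. Points are the 10 genes, with Sema3f at 3.88 and 6.20 at the far right of both panels and Sema3a at 0 in both.

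The replicates could be compared at the same sites. Of the replicate 1 peaks at the 10 genes, 55 of 107 overlapped a replicate 2 peak (51.4%), against 34.1% of all replicate 1 peaks. Of the replicate 2 peaks, 53 of 130 did (40.8%), against 30.8%. Peaks of 1 gene share a place and are not replicates, so no interval is given. For ligand and receptor genes the shares were 56.5% and 50% in replicate 1 and 43.3% and 40% in replicate 2. Unshared peaks were weaker than shared ones at these genes, as in the whole lists. Their median value at the 10 genes was 0.0314 in replicate 1 and 0.014 in replicate 2, and 0.0267 and 0.0161 over all peaks. For shared peaks the medians were 0.00473 and 3.25e-04 at the 10 genes and 0.00938 and 0.00122 over all peaks. At a value of 0.01 or lower were 8 of the 52 unshared peaks in replicate 1 (15.4%, against 13.6% of all unshared peaks) and 30 of 77 in replicate 2 (39.0%, against 30.7%).

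At all 17 reproducible regions the value was smaller in replicate 2. This held for 90.3% of all reproducible regions as well. Over the 50 regions it held for 40, against 75.4% of the whole table. The replicates began at the same base in 22 of the 50 regions and ended at the same base in 16, against 38.4% and 38.3% of all regions. At least 1 edge was the same in 31 of 50, against 60.8%.

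**Figure D5:**
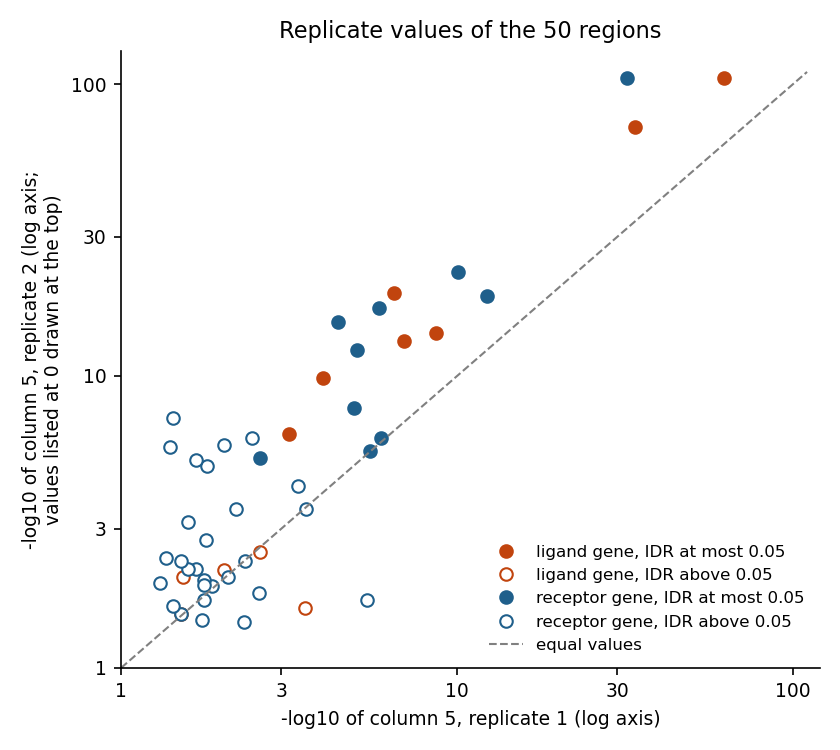
Each point is 1 of the 50 regions, placed by -log10 of the significance value in replicate 1 and in replicate 2, both on log axes, with values listed at 0 drawn at the top. The 17 filled points, with an IDR of 0.05 or lower, all lie above the dashed line of equal values, and the Plxnb1 and Sema3g regions are at the top.

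The rest of the family gives a view of genes that were not picked for this set. The table has 31 semaphorin, plexin and neuropilin genes, and 13 of the 21 others had a reproducible region (61.9%), against 26.1% of all genes. They were longer than the average gene too, with a median of 39.8 kb. Of 17 other semaphorin genes 12 had one, with the lowest IDRs at Sema4b (5.62e-07), Sema4d (6.09e-06), Sema3b (1.16e-05), Sema5a (1.50e-05) and Sema6d (1.53e-05). Sema4d is the ligand of Plxnb1. Sema4c, Sema7a, Sema3e, Sema5b, Sema6c, Sema4a and Sema6a followed with IDRs from 1.52e-04 to 0.0127. The lowest regions of Sema7a, Sema4a and Sema6c lay 46.2, 40.9 and 6.25 kb outside the gene, and those of Sema4c, Sema3e, Sema5b and Sema6a inside it. Sema3e, the Plxnd1 ligand, had its only region inside the gene, at an IDR of 4.30e-04. Of the 4 other plexins only Plxna4 had any, with 3 reproducible regions and a lowest IDR of 5.38e-07. Among the 7 class 3 genes, Sema3b, Sema3e, Sema3f and Sema3g had a reproducible region, while Sema3a, Sema3c and Sema3d had none.

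Downstream and partner genes of the pathway were taken from a list of 34, chosen with earlier results of these data known. Of the 34, 15 had a reproducible region (44.1%), against 26.1% of all genes. The median length of the 34 was 70.1 kb. Among all genes of 12.5 to 478.7 kb the share was 29.9%, and among those of 100 kb or longer it was 42%. The lowest IDRs were at Mical3 (9.72e-08), of a family of flavoproteins that act on actin, Vegfa (2.26e-07), the growth factor bound by neuropilins, Limk2 (9.78e-07), a kinase of cofilin, and Fyn (2.49e-06), a kinase downstream of Sema3a. The lowest region of Limk2 lay 10.8 kb outside the gene, and those of Mical3 and Fyn inside it. Vegfa had 2 reproducible regions, and its lowest lay 17.3 kb outside the gene. Of its receptor genes, Flt1 had 1, at an IDR of 0.0453, and Kdr had no region in both replicates.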

How the data were processed

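The deposited peak lists give, per WT1 sample, a position and a value from 0 to 0.0499, read as a p-value or q-value (the sources do not say which). The authors' table of both replicates gives 1 value per region, between 5.19e-08 and 0.555, read as a global IDR, a q-value-like rate. The build is mm10, per the submitters' processing notes. The sources used here name no aligner or caller and do not say whether IgG reads were used in calling.

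Positions were taken as BED and are printed 1-based. Gene spans come from RefSeq GRCm38.p6, without strand or exons. A region found in several windows counted for each gene. Replicate values of a region are the smallest of the overlapping peaks. All 10 members, the family by symbol and the pathway list are reported; the members and lists were chosen with earlier results of these data known. Placing and overlap functions were tested on simulated data. Python 3.11.15, pandas 2.3.3, scipy 1.17.1 and matplotlib 3.10.9 were used. Alternatives were other IDR thresholds, windows and placing rules, each replicate alone, and a stricter overlap.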

Additional observations from a re-analysis of the deposited data

How the results depend on the processing

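The count of 8 genes with a reproducible region ran from 6 (gene body only, 10 kb window, nearest gene only) to 9. The 17 reproducible regions became 9 with regions inside genes only, 10 with a 10 kb window and 10 when a region counted only for the nearest gene of any kind. They became 13 and 20 at IDR thresholds of 0.01 and 0.1, 18 with a 100 kb window, and 17 with any overlap. The 50 regions became 28 inside genes, 31 within 10 kb and 60 within 100 kb. At a value of 0.01 or lower, 40 of 107 replicate 1 peaks and 70 of 130 replicate 2 peaks remained. From 1 replicate alone, using as many top peaks as there are reproducible regions, 8 to 9 genes and 14 to 17 peaks were found. With a reciprocal overlap of at least 50%, 42.1% and 34.6% of peaks were shared in replicates 1 and 2. The 6 genes with 2 or more reproducible regions became 3 at an IDR threshold of 0.01 and 3 with regions inside genes only, and 3 to 6 from 1 replicate alone; these alternatives were added for this count after seeing the data. Plxnb2 and Plxnd1 lost all reproducible regions in the gene body, 10 kb and nearest gene settings. Apart from the counts from 1 replicate alone, whose cause was not tested, the smaller counts come from settings with less sequence or stricter rules. The nearest gene setting drops regions that lie nearer to another gene. No paired analysis was possible because no result given here comes from a test between groups. Depth is unknown, and the significance values are coarse: 9941 of the 53132 replicate 1 peaks have the value 0.0371.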

Other observations

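Part of the peak edges fell at restriction sites. The split of the Plxna2 promoter peak at AGCT in replicate 1 led to a count over all promoter windows, made after that value was seen. Of 2181 edges of replicate 1 peaks inside promoter windows, 510 (23.4%) lay exactly at the cut in AGCT, the AluI site, and of 3681 edges in replicate 2, 604 (16.4%) did. AGCT starts at 0.526% of all positions in these windows. The MseI site TTAA was at 6.14% and 5.84% of edges, against 0.324% of positions. The HaeIII site GGCC was at 0.504% and 1.17%, against 0.611%. The labels' protocols name AluI with MseI or HaeIII with MseI for the digestion, without saying which pair each sample had. How far such edges set the widths and same-base edges given for the 50 regions was not tested.

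Promoter windows that a reproducible region overlapped, 626 in all, held the WT1-like words more often than promoters as a whole. GCGTGGGCG, the word in Plxna2, was in 22 of them (3.51%) against 0.612% of all windows, and GCGTGGGAG in 33 (5.27%) against 0.472%. These windows also had a median of 20 CpG dinucleotides against 7, and that of Plxna2 had 25. The part of this base composition in the word counts was not tested.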
